A study of Drosophila melanogaster with 6 samples.

Results

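The comparison described here sets adult male Drosophila melanogaster heads in which the microRNA miR-14 was returned to a few brain neurons against heads that lacked it. The members were chosen by sample title: the 2 arrays titled rescue and the 2 arrays titled mutant, 4 of the 6 arrays in the series, with the 2 control arrays left out. Rescue flies were homozygous dme-miR-14 mutants that expressed dme-miR-14 in the insulin-producing cells (IPCs), and mutant flies were homozygous dme-miR-14 mutants without that expression, so both groups shared the loss of the gene elsewhere in the body. All flies were 5-day-old adult males, reared under similar growth and feeding conditions, and RNA of whole heads, snap frozen and vortexed off, was labelled from 5 µg and hybridized to Affymetrix arrays. The titles call the 2 arrays of a group biological replicates. How many heads went into each, the driver used for the IPCs and how far expression was limited to them are unstated in the labels.

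A microRNA pairs with sites in messenger RNAs and lowers their stability or translation, so a gene it restrains directly is higher where the microRNA is missing. The IPCs are neurosecretory neurons of the brain that release insulin-like peptides into the circulation, where the peptides act on the fat body, the fly's liver-like and fat-storing tissue, and on other organs. A head sample therefore holds very little RNA from the IPCs themselves and much from eye, brain, muscle, cuticle, antenna and the fat body that lies in the head. In such bulk samples fewer cells of a type and less RNA per cell cannot be told apart.

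Each array gave 1 value for each of 18769 probe sets, groups of short probes that measure a transcript, after 183 control probe sets were set aside. Values below are RMA intensities on a linear scale, which ran from 5.7 to 16715.7 over the 4 arrays, with array medians between 59.6 and 59.9. The median SD between the arrays of a group was 0.0547 in rescue and 0.0642 in mutant on the log2 scale, and replicates were at least 1.5-fold apart at 52 probe sets in rescue and 104 in mutant. RNA quality differed somewhat: for the actin control, 5' signal divided by 3' signal gave 0.153 and 0.144 on the rescue arrays, against 0.0941 and 0.137 on the mutant arrays, and for GAPDH it gave 0.0742 and 0.085, against 0.054 and 0.071. The rescue ratios lay above both mutant ratios, and its part in the results was tested only by adding an index of these ratios to a fit of all 6 arrays. The tissue label held: photoreceptor genes such as Arr2 (15675.4 and 16667.3 in rescue, 16347.1 and 16715.7 in mutant) were among the brightest on the array, while of 6 testis markers 4 stayed at or under 16.3 on all 4 arrays.

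miR-14 in the insulin-producing cells went with modest changes in a small share of head transcripts. At an adjusted p under 0.05 (limma, Benjamini-Hochberg over all probe sets), 361 probe sets were higher and 325 lower in rescue than in mutant heads, which is 1.92% and 1.73% of those tested and 3.65% together. The median called change was 1.49-fold, 351 of the 686 called were under 1.5-fold, and 67 probe sets rose and 32 fell by at least 2-fold. At 4-fold the counts were 17 and 6. By name, 287 genes were higher and 272 lower on at least 1 probe set, and 104 called probe sets had no single gene name.

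Calls were rarer among dim transcripts. Of 6962 probe sets with a mean under 32, 0.33% were higher and 0.273% lower, whereas of 2657 in the brightest of 4 classes of mean intensity, 3.27% were higher and 3.39% lower. In all 686 called probe sets the 2 rescue values lay wholly above or wholly below the 2 mutant values, as did 49.1% of all probe sets.

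**Figure D1:**
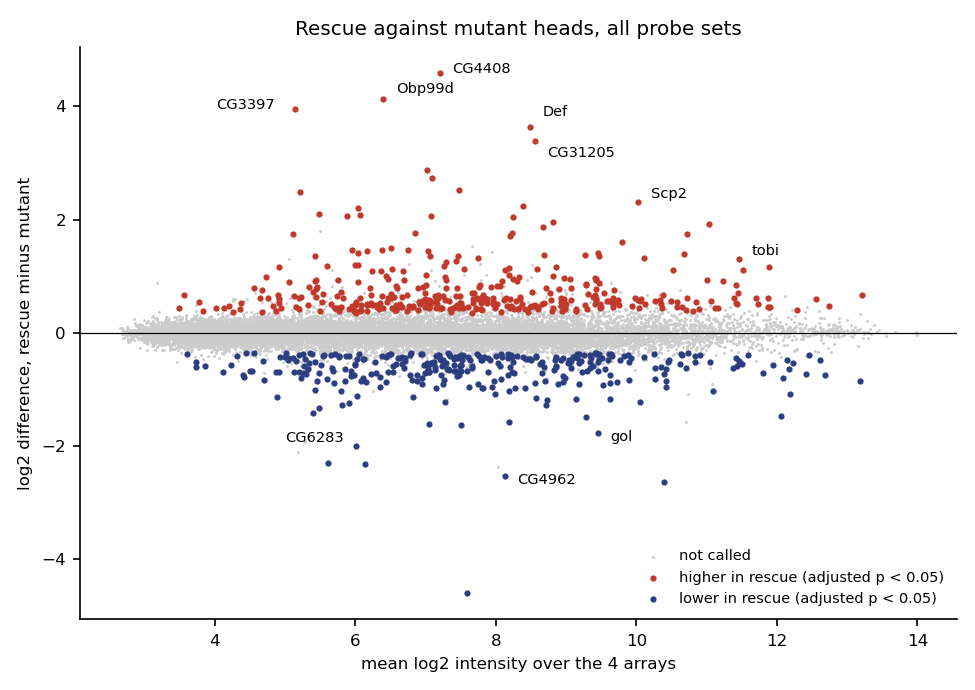
Each point is a probe set, plotted by its mean log2 intensity over the 4 arrays (horizontal) and its log2 difference, rescue minus mutant (vertical). Red points (361) were higher and blue points (325) lower in rescue at an adjusted p under 0.05. Most called points lie within 1 log2 unit of 0, and CG4408, Obp99d, CG3397, Def and CG31205 stand highest.

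These counts rest on 2 arrays a group. With any 1 of the 4 arrays left out, between 8 and 11 probe sets were called higher and 3 or 4 lower, and 8 probe sets were called in the full comparison and in each of those 4 fits: CG4408, Obp99d, Def, CG31205 and Scp2 and 2 without a gene name upward, and 1 without a gene name downward. No other gene named below passed in each of those 4 fits. With the control arrays added to the fit, which leaves each difference as it is and changes how the spread is estimated, 130 were higher and 133 lower. Genes named below that this removed are given as such.

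The largest rises were in genes of very different kinds. CG4408 had intensities of 689.5 and 761.9 in rescue heads, against 32.4 and 28.0 in mutant heads, a difference of 4.59 ± 0.098 (SE) on the log2 scale, or 24.1-fold (adjusted p = 9.08e-06). Def, which encodes the antimicrobial peptide Defensin, reached 1296.9 and 1237.3 in rescue, against 100 and 102.9 in mutant (3.64 ± 0.072, adjusted p = 9.08e-06). The rescue values of both genes were more than 10 times their mutant values and their replicates lay close together. CG31205 read 1143.6 and 1295.8 in rescue and 111.0 and 121.3 in mutant (3.39 ± 0.091, adjusted p = 1.78e-05). Scp2, a sarcoplasmic calcium-binding protein gene, read 2260.4 and 2382.4 in rescue and 471.6 and 468.6 in mutant (2.30 ± 0.072, adjusted p = 2.91e-05). Scp2 was thus a well expressed gene in both groups, and its change was not one from the floor of the array.

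Some rises started from that floor. CG3397 had 124.7 and 156.3 in rescue heads, against 8.6 and 9.4 in mutant heads (3.96 ± 0.12), and CG9616 had 104.3 and 74.3, against 15 and 16.4 (2.49 ± 0.15). Probe sets for the bacterial control TrpnX-5 and the control TagB read between 8.4 and 15.7 on the same arrays, so the mutant level of both genes may be background and the size of their rise is uncertain. CG6912 (401.9 and 454.3 in rescue, 68.2 and 81.5 in mutant), CG15282 (314.9 and 241.6, against 68.6 and 64.1) and CG32523 (708.3 and 1119.7, against 249.9 and 209.1) stayed well above it. Osi2, of the Osiris family, read 147.4 and 128.2 in rescue, against 36.5 and 29.2 in mutant. Os-C, named for its expression in olfactory organs, read 123.3 and 119.4 in rescue and 26.1 and 32.2 in mutant. These 5 genes rose by between 1.96 and 2.52 log2 units, with adjusted p from 1.85e-04 to 0.00616.

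For 2 of the 15 genes with the largest rises, other probe sets of the same gene did not move alike. CG40485 rose on one probe set, with 569.3 and 666.9 in rescue, against 134.4 and 166.5 in mutant (2.04 ± 0.13), while its other probe set read 556.5 and 452.0, against 716.8 and 671.9 (-0.47 ± 0.11, adjusted p = 0.0751). The leucine-rich repeat gene 2mit rose on one (70.4 and 122.8 in rescue, 23.8 and 19.8 in mutant, 2.10 ± 0.24), but its brighter probe set differed by 0.31 ± 0.078 (adjusted p = 0.0938). Such probe sets may read different transcripts, and the gene names stand here for the probe set alone.

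Among probe sets with a gene name the largest falls were smaller than the largest rises. CG4962 fell to 124.5 and 109.4 in rescue heads, against 701.6 and 642.8 in mutant heads (-2.52 ± 0.092, adjusted p = 6.9e-05), and CG6283 to 33.5 and 30.8, against 129.5 and 127.9 (-2.0 ± 0.076, adjusted p = 8.39e-05). In both, the mutant arrays gave nearly equal values, whereas they differed for CG14297 (30.8 and 32.6 in rescue, 202.8 and 122.8 in mutant) and CG18563 (22.3 and 22 in rescue, 150.1 and 78.3 in mutant). CG14297 fell by 2.32 ± 0.21 and CG18563 by 2.29 ± 0.27 on the log2 scale, and the groups did not overlap in either.

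Genes with a known protein function were found among the falls as well. Goliath (gol), which encodes a RING-finger ubiquitin ligase, had 385.6 and 373.5 in rescue and 1347.6 and 1229.2 in mutant (-1.76 ± 0.079, adjusted p = 2.04e-04), although its second probe set differed by -0.36 (adjusted p = 0.0545). FarO, a fatty acyl-CoA reductase gene, had 83.6 and 69.3, against 245.6 and 218.2 (-1.60 ± 0.11, adjusted p = 0.00147). Egalitarian (egl), which links messenger RNAs to the dynein motor, had 378.6 and 372.7, against 824.6 and 863.4 (-1.17 ± 0.071, adjusted p = 8.9e-04). Plutonium (plu), an ankyrin repeat gene, had 26.1 and 25.8, against 70.6 and 67.9 (-1.42 ± 0.070). CG14329, CG4783, CG42367, CG13676 and CG30033 fell by between 1.17 and 1.62 log2 units. Of these 15 genes with the largest falls, CG13676 did not pass with the control arrays in the fit (adjusted p = 0.0539).

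**Figure D2:**
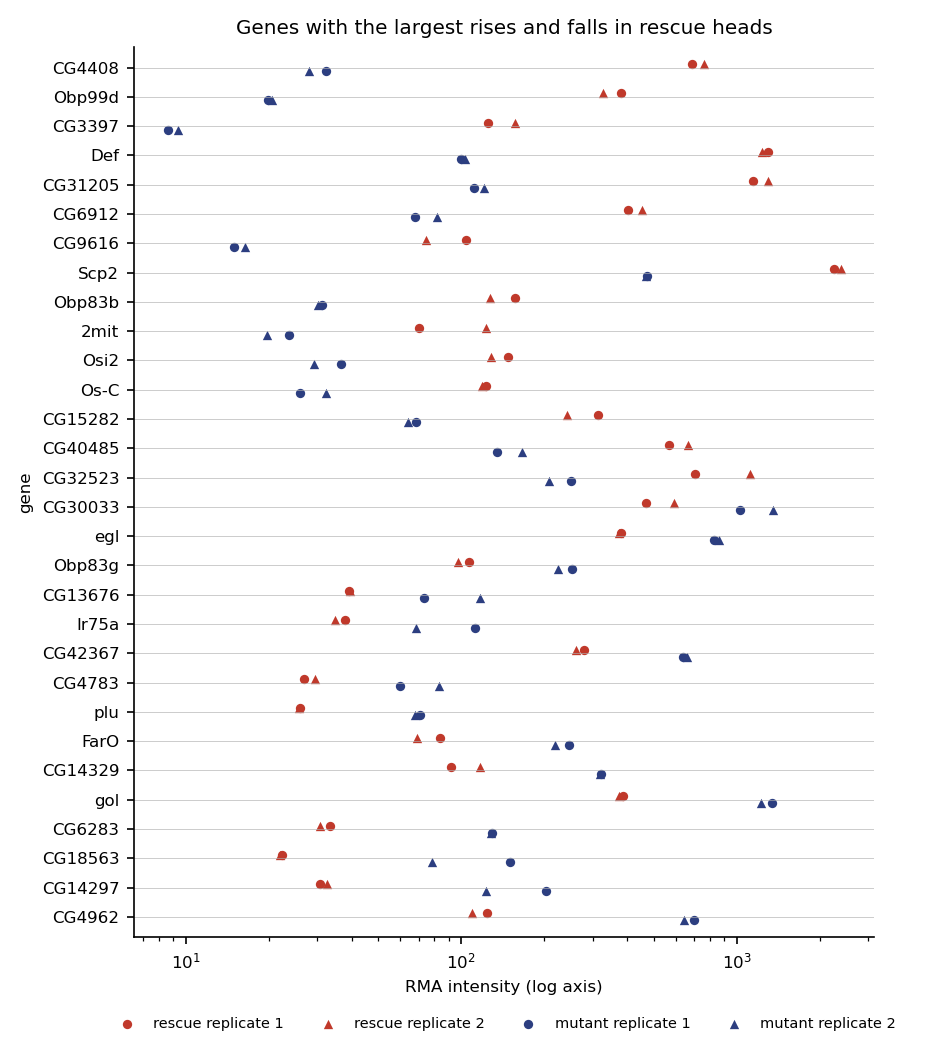
RMA intensity (horizontal, log axis) of the 15 genes with the largest rises and the 15 with the largest falls, from top to bottom by log2 difference. Red symbols are rescue arrays and blue symbols mutant arrays, circles replicate 1 and triangles replicate 2, and in no gene do the colours overlap.

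Of the listed peptide genes of the insulin-producing cells, Ilp5 was higher in rescue and Ilp2 did not pass. Among 6 measured genes for insulin-like peptides and their secreted partners 1 rose, none fell and 5 did not pass, with a median difference of 0.16, against -0.022 over all 11982 genes. Over all genes, each taken at its brightest probe set, 4.17% were called, 2.12% higher and 2.05% lower. Ilp5, one of the insulin-like peptides of these neurons, read 571.7 and 511.5 in rescue heads and 388.1 and 337.4 in mutant heads (0.58 ± 0.098, 95% interval 0.34 to 0.81, adjusted p = 0.0305). Ilp2, made in the same neurons, lay the other way, at 909.3 and 869.8 in rescue, against 1106.2 and 1048.2 in mutant, but did not pass (-0.28, interval -0.45 to -0.10, adjusted p = 0.105). The groups did not overlap for either peptide gene. Sdr, a secreted decoy of the insulin receptor (0.25, adjusted p = 0.302), and ImpL2, which encodes a protein that binds insulin-like peptides (0.23, adjusted p = 0.365), did not pass. Ilp7 and Ilp8 were dim, between 12.6 and 17.6 on all 4 arrays. Ilp1, Ilp4, Ilp6 and Dsk matched no measured gene, and Ilp3 was not among the 6.

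Sugarbabe (sug) encodes a zinc finger factor that sugar feeding induces. The gene, reported before as a miR-14 target in these neurons, was lower in rescue. It read 201.3 and 241.9 in rescue heads, against 386.8 and 490.6 in mutant heads (-0.98 ± 0.14, interval -1.31 to -0.65, adjusted p = 0.0164). Both rescue values were below both mutant values. The call was lost when the control arrays joined the fit (adjusted p = 0.336), and returned when the 5' to 3' index was added to that fit (-1.49, adjusted p = 0.00511). Of 6 genes listed as reported targets or partners of miR-14, sug alone passed. The others were hh, the hedgehog ligand (29.9 and 36.4 in rescue, 24.9 and 25.1 in mutant, adjusted p = 0.0972), its receptor ptc (-0.10), the ecdysone receptor EcR (-0.17), the inositol kinase gene IP3K2 (-0.11) and the caspase gene Dronc (0.14), with adjusted p from 0.342 to 0.613 for the last 4. The list had a median of -0.11.

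In the pathway of insulin and TOR, the growth kinase it feeds, none of 12 measured genes passed (limma), while unadjusted p was under 0.05 for 5 lower and 0 higher genes. Their median was -0.17. The list did not count Sesn and Iml1, genes that act on TOR. Both were called lower in rescue and are given under other observations. The insulin receptor InR read 232.8 and 303.9 in rescue heads, against 379.7 and 337.7 in mutant heads (-0.43, interval -0.75 to -0.11, adjusted p = 0.148). The kinase S6k, which TOR activates, read 622.4 and 697.6, against 840.6 and 809.9 (-0.32, adjusted p = 0.0956), and Tsc1, a TOR inhibitor, read 347.5 and 351.2, against 434.5 and 412.4 (-0.28, adjusted p = 0.0968). For foxo, the transcription factor held back by insulin signalling, the values were 261.7 and 269.0 in rescue and 254.7 and 258.0 in mutant (0.050, interval -0.12 to 0.22, adjusted p = 0.764). No foxo value of either group stood far from the rest.

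Of the genes of sugar handling 4 rose and sug fell. In the list of sugar sensing and digestion 2 of 18 rose and 1 fell (median -0.027, 11 differences below 0, unadjusted p under 0.05 for 2 higher and 4 lower), and in that of trehalose, glycogen and sugar transport 2 of 15 rose and none fell (median 0.19). The α-glucosidase gene tobi, named as a target of brain insulin, read 4250.1 and 4649.0 in rescue heads and 2252.4 and 1442.6 in mutant heads (1.30 ± 0.19, 2.47-fold, adjusted p = 0.0191). UGP, the enzyme that makes UDP-glucose for glycogen and trehalose, read 272.4 and 194.1, against 105.4 and 98.3 (1.18 ± 0.15, adjusted p = 0.0131). Pgm1, the phosphoglucomutase one step before it, read 1983.3 and 1858.2, against 1501.2 and 1413.6 (0.40 ± 0.077, adjusted p = 0.0444). Enzymes on both sides of that step did not pass but lay on the same side: glycogen synthase (Glys, 0.36, adjusted p = 0.0773), the branching enzyme AGBE (0.30, adjusted p = 0.118), trehalase (Treh, 0.35, adjusted p = 0.0859) and the trehalose synthase gene Tps1 (0.14, adjusted p = 0.339). In this second list 11 differences lay above 0 and 4 below, and unadjusted p was under 0.05 for 8 higher genes and 0 lower ones. Malic enzyme (Men), which makes NADPH, read 5530.7 and 5982.5 in rescue, against 4427.2 and 4244.5 in mutant (0.41 ± 0.077, adjusted p = 0.0414). The calls of Pgm1 (adjusted p = 0.0841) and Men (adjusted p = 0.07) were lost with the control arrays in the fit, and that of tobi with the 5' to 3' index added as well (adjusted p = 0.0527), which left 0 higher and 2 lower genes in the sugar sensing list.

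Of the pathway that takes sugar apart, none of 17 measured glycolytic and gluconeogenic genes passed (limma). Unadjusted p was under 0.05 for 2 higher and 1 lower gene, and the median was 0.014. Gapdh2, Pyk and Ldh were among the symbols that matched no measured gene, so the list covers only a part of the pathway. The largest difference was in Pepck2, which encodes a phosphoenolpyruvate carboxykinase, at 969.0 and 1366.9 in rescue and 1562.2 and 1614.4 in mutant (-0.46, adjusted p = 0.165).

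A few lipase and fat body genes were higher in rescue. Of 17 fat storage and lipolysis genes 3 rose and none fell, with a median of 0.18 and 15 of 17 differences above 0. Brummer (bmm), the triglyceride lipase of fat droplets, read 938.8 and 737.5 in rescue heads and 558.7 and 510.2 in mutant heads (0.64 ± 0.12, adjusted p = 0.0434). The lipase genes Lip2 (183.8 and 192.6 in rescue, 140.7 and 141.5 in mutant, 0.42 ± 0.071) and Lip4 (408.0 and 390.3 in rescue, 303.1 and 314.0 in mutant, 0.37 ± 0.072) rose less. Of the perilipins that coat fat droplets, Lsd-1 read 2165.1 and 2286.0, against 1830.3 and 1708.3 (0.33, adjusted p = 0.0729), and Lsd-2 differed by 0.21 (adjusted p = 0.285). None of the 3 lipase calls held with the control arrays in the fit (adjusted p from 0.0688 to 0.447), with the 5' to 3' index added or with any 1 array left out. Among 14 genes of fatty acid synthesis and elongation FarO alone passed, downward, and the median was 0.14. Outside that count Elovl7, a fatty acid elongase gene, also fell (-0.89, adjusted p = 0.0141, and 0.0473 with the control arrays in the fit).

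Of 14 secreted and carrier proteins of the fat body 2 rose and none fell (median 0.059). Lsp2, a storage protein of fat body, read 11784.4 and 12081.5 in rescue, against 7835.2 and 7134.1 in mutant (0.67 ± 0.078, adjusted p = 0.0088), and fit read 965.4 and 1056.8, against 602.3 and 722.6 (0.61 ± 0.11, adjusted p = 0.0315, and 0.0911 with the control arrays in the fit). The lipoprotein gene apolpp, also of fat body, had 9925.3 and 10214.2 in rescue and 10217.3 and 9972.0 in mutant, a difference of -0.0036. The summed intensity of the 14 genes was 39269.0 and 40911.4 in rescue, against 34260.5 and 32959.5 in mutant, and its part in the changes of sugar and lipid genes was not tested.

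One-carbon metabolism, which passes single carbons from serine and glycine to purines and methyl donors, was higher in rescue at 3 of 10 genes and lower at none (median 0.14). Nmdmc, a mitochondrial methylenetetrahydrofolate dehydrogenase, read 851.4 and 721.2 in rescue heads and 194.2 and 236.6 in mutant heads (1.87 ± 0.12, adjusted p = 0.00113). The cytosolic enzyme gene pug, which acts on the same folates, read 3429.1 and 3175.1, against 2454.9 and 2141.8 (0.53 ± 0.092, adjusted p = 0.0337). Shmt, serine hydroxymethyltransferase, read 3349.8 and 3235.0, against 2491.3 and 2141.5 (0.51 ± 0.092, adjusted p = 0.0359). All 3 enzymes work in the folate cycle, and no array of one group overlapped the other in any of them. With the control arrays in the fit pug (adjusted p = 0.0569) and Shmt (adjusted p = 0.0652) did not pass.

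**Figure D3:**
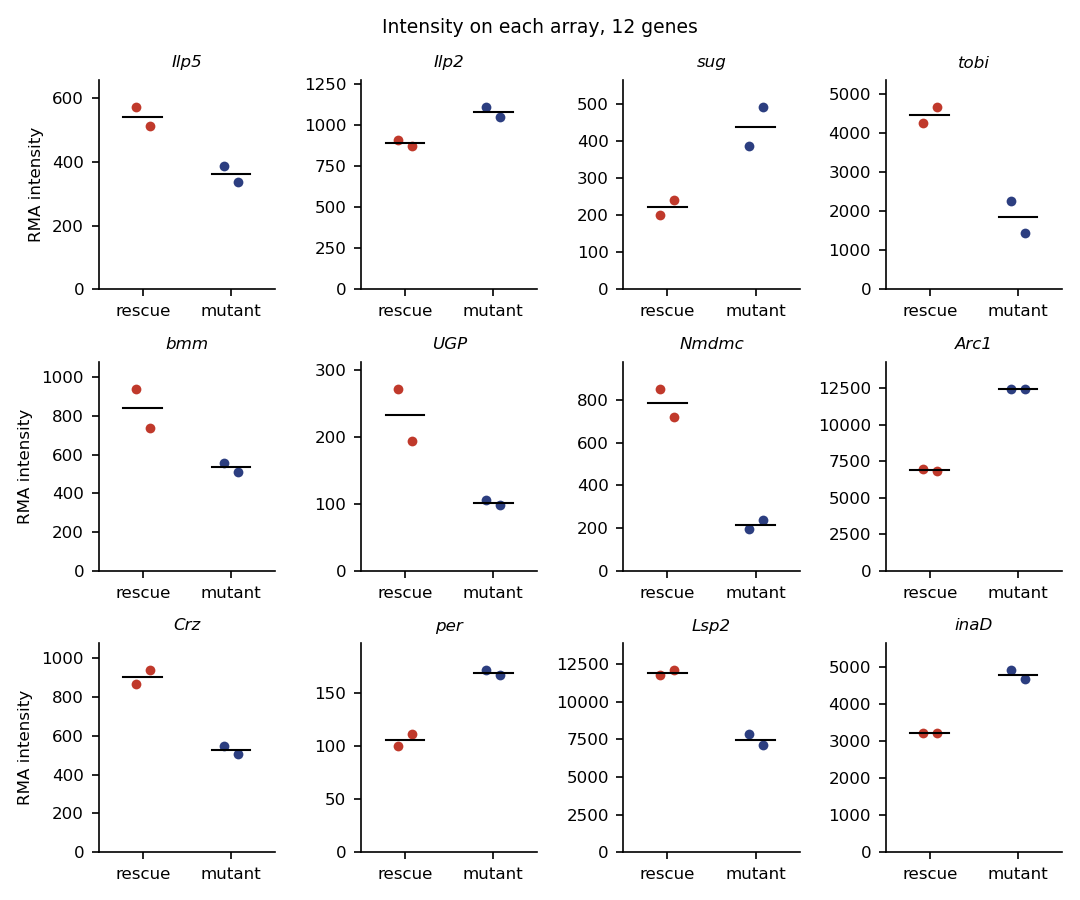
RMA intensity on each array (vertical, linear axes from 0) for 12 genes, with rescue at left in red and mutant at right in blue and a line at the mean of the 2 arrays. Rescue lies above mutant for Ilp5, tobi, bmm, UGP, Nmdmc, Crz and Lsp2, and below it for Ilp2, sug, Arc1, per and inaD, with no overlap in any panel. Ilp2 did not pass the test.

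Genes that neurons switch on with activity were lower in rescue at 3 of 10 members, with none higher (median 0.12, with 6 of 10 differences above 0). Arc1, which encodes a capsid-like protein released by neurons, read 6968.0 and 6818.1 in rescue heads, against 12454.7 and 12469.6 in mutant heads (-0.85 ± 0.069, 1.81-fold lower, adjusted p = 0.00225). The second probe set of Arc1 fell as well (-1.09 ± 0.20, adjusted p = 0.0359, and 0.203 with the control arrays in the fit). The neighbouring copy Arc2 read 99.4 and 92.3, against 128.5 and 124.0 (-0.40 ± 0.076, adjusted p = 0.0426), and kay, the fly Fos gene, read 606.3 and 572.0, against 875.1 and 799.0 (-0.51 ± 0.081, adjusted p = 0.0251). Of these, Arc2 (adjusted p = 0.104) and kay (adjusted p = 0.0565) did not pass with the control arrays in the fit.

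Of 26 neuropeptide genes outside the insulin family 1 rose and 1 fell, with a median of 0.10. Their differences were above 0 in 19, and unadjusted p was under 0.05 for 7 higher and 1 lower. Corazonin (Crz), a peptide hormone of lateral brain neurons, read 864.6 and 935.1 in rescue, against 544.7 and 506.5 in mutant (0.78 ± 0.080, adjusted p = 0.00595). Nplp3 read 5626.7 and 4998.4, against 7509.5 and 7195.2 (-0.47 ± 0.085, adjusted p = 0.0359, and 0.104 with the control arrays in the fit). Dh44, a diuretic hormone of the same brain region as the IPCs, had 538.2 and 623.1 in rescue and 398.1 and 463.9 in mutant (0.43, adjusted p = 0.0903). Of 19 genes of dopamine and other amines 2 fell and none rose (median -0.070): Pu, described with the eye below, and the serotonin receptor 5-HT2A (193.2 and 182.4 in rescue, 278.2 and 243.9 in mutant, -0.47 ± 0.089), whose call was lost with the control arrays in the fit (adjusted p = 0.206).

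Of 11 circadian clock genes only period (per) passed, at 99.6 and 111.0 in rescue and 171.2 and 166.5 in mutant (-0.68 ± 0.081, adjusted p = 0.00967). Of the 10 that did not pass, 6 lay below 0, among them vri (-0.57, adjusted p = 0.0543), Pdp1 (-0.42, adjusted p = 0.0668), tim (-0.27, adjusted p = 0.153) and Clk (-0.34, adjusted p = 0.185). The other 4 lay above 0, the highest being Pdf, the clock neuropeptide (0.28, adjusted p = 0.132), and cwo, a clock repressor (0.19, adjusted p = 0.246). The median of the list was -0.27. These transcripts cycle over the day, and the labels do not state the hour at which heads were taken.

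None of 7 neuron markers passed (limma; unadjusted p under 0.05 for 2 higher and 0 lower, median -0.073). VGlut, the glutamate transporter of synaptic vesicles, read 175.2 and 214.2 in rescue and 91.4 and 131.5 in mutant (0.82, adjusted p = 0.061), and nSyb, of the vesicle fusion machinery, read 1495 and 1417, against 1072.6 and 1254.8 (0.33, adjusted p = 0.126). The groups did not overlap in either, while 5 of the 7 markers, such as elav (-0.45, adjusted p = 0.261), lay below 0. None of 6 glia markers passed (limma; unadjusted p under 0.05 for 2 higher and 0 lower, median 0.056). The GABA transporter gene Gat read 583.4 and 880.2 in rescue, against 261.3 and 538.1 in mutant (0.93, adjusted p = 0.198), and alrm, an astrocyte gene, read 512 and 713.1, against 266.4 and 467.6 (0.78, adjusted p = 0.182). Replicates of both glia genes were uneven, and replicate 1 was the lower array in each group. With the replicate number as a block Gat (adjusted p = 0.0221), alrm (adjusted p = 0.0237) and VGlut (adjusted p = 0.0141) passed, although the numbers did not pair the arrays over all probe sets. The glia regulator repo differed by 0.055.

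Some eye transcripts were lower in rescue. Of 19 measured photoreceptor genes 4 fell and none rose, with a median of -0.28 and 16 differences below 0. The rhodopsin genes ninaE, Rh2, Rh3, Rh4, Rh5 and Rh6, and also norpA and ninaC, matched no measured gene and are not among the 19. InaD (inaD), the scaffold of the light-response complex, read 3210.1 and 3228.4 in rescue heads and 4909.7 and 4679.0 in mutant heads (-0.57 ± 0.071, adjusted p = 0.011). The channel gene trpl read 4103.4 and 3911.4, against 5972.2 and 5613.7 (-0.53 ± 0.075), chp, which encodes the adhesion protein chaoptin, read 3866.7 and 3808.4, against 5388.0 and 5369.8 (-0.49 ± 0.069), and rdgC, the rhodopsin phosphatase gene, read 1396.4 and 1388.9, against 1881.2 and 1738.8 (-0.38 ± 0.075). The arrestin genes that bind active rhodopsin did not follow: Arr1 differed by -0.048 and Arr2 by -0.032, both brighter than every gene that fell. The summed intensity of the list was 63035.2 and 63514.2 in rescue, against 74442.1 and 73573.5 in mutant. Very bright probe sets can be compressed, and this was not tested.

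Eye pigment genes fell in 5 of 15 measured cases, with none higher (median -0.16), while w and v matched no measured gene. The pigment transporter scarlet (st) read 120.1 and 125.9 in rescue and 192.2 and 178.7 in mutant (-0.59 ± 0.076). Punch (Pu), GTP cyclohydrolase of the pteridine pathway, read 1328.4 and 1272.6, against 1836.2 and 1981.0 (-0.55 ± 0.077), and sepia (se), a later enzyme of the same pathway, read 1141.8 and 987.6, against 1730.9 and 1489.8 (-0.60 ± 0.11). Cardinal (cd), of the ommochrome pathway, read 43.5 and 38.5, against 65.0 and 60.6 (-0.62 ± 0.088), and garnet (g), a subunit of the AP-3 sorting complex, differed by -0.41 ± 0.081. Both pigment pathways were thus represented, with adjusted p from 0.0129 to 0.0484. With the control arrays in the fit Pu remained past the threshold and the other 4 did not (adjusted p from 0.0527 to 0.106), and neither did rdgC (adjusted p = 0.217) in the photoreceptor list. With the 5' to 3' index in that fit as well, st passed (adjusted p = 0.0375) and chp did not (adjusted p = 0.0505).

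Odorant binding proteins, small secreted proteins best known from the fluid around olfactory neurons in the antenna, were the list with most calls. Of 48 measured, 11 rose and 3 fell, or 22.9% and 6.25%, beside 2.12% and 2.05% of all genes, while the median of 0.038 lay near that of all genes. Obp99d read 379.9 and 327.0 in rescue heads, against 19.9 and 20.5 in mutant heads (4.13 ± 0.091, adjusted p = 9.08e-06). Obp83b read 156.4 and 127.6, against 31.3 and 30.2 (2.20 ± 0.11), and lush, the pheromone-sensing binding protein, read 103.2 and 111.6, against 43.4 and 37.5 (1.41 ± 0.095, adjusted p = 0.00123). The mutant values of Obp99d lay little above the dim controls, which makes its fold less certain than its direction.

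Members of this family were not alike in size or sign. Obp99b, a bright member, read 4471.8 and 4177.0 in rescue and 2124.7 and 1897.8 in mutant (1.11 ± 0.086), and Obp44a, another bright member, read 7790.5 and 8273.7, against 5742.0 and 5849.5 (0.47 ± 0.073). Obp19a, Obp8a, Obp56a, Obp56e, Obp47a and Obp84a rose by between 0.42 and 1.74 log2 units. Obp84a (13.2 and 13 in rescue, 10.1 and 9.2 in mutant) lay within the range of the dim controls, so its call may be one of background. In contrast Obp69a fell to 177.8 and 170.9 in rescue, against 384.4 and 353.5 in mutant (-1.08 ± 0.078, adjusted p = 0.00182), Obp83g to 106.6 and 97.6, against 252.5 and 224.4 (-1.22 ± 0.090, adjusted p = 0.00183), and Obp99a to 62.9 and 67.9, against 100.7 and 87.0 (-0.52 ± 0.095). With any 1 array left out 1 or 2 members rose and none fell, and with the control arrays in the fit the counts were 8 and 2, without Obp56e (adjusted p = 0.0665), Obp47a (adjusted p = 0.0591), Obp84a (adjusted p = 0.06) and Obp99a (adjusted p = 0.112).

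**Figure D4:**
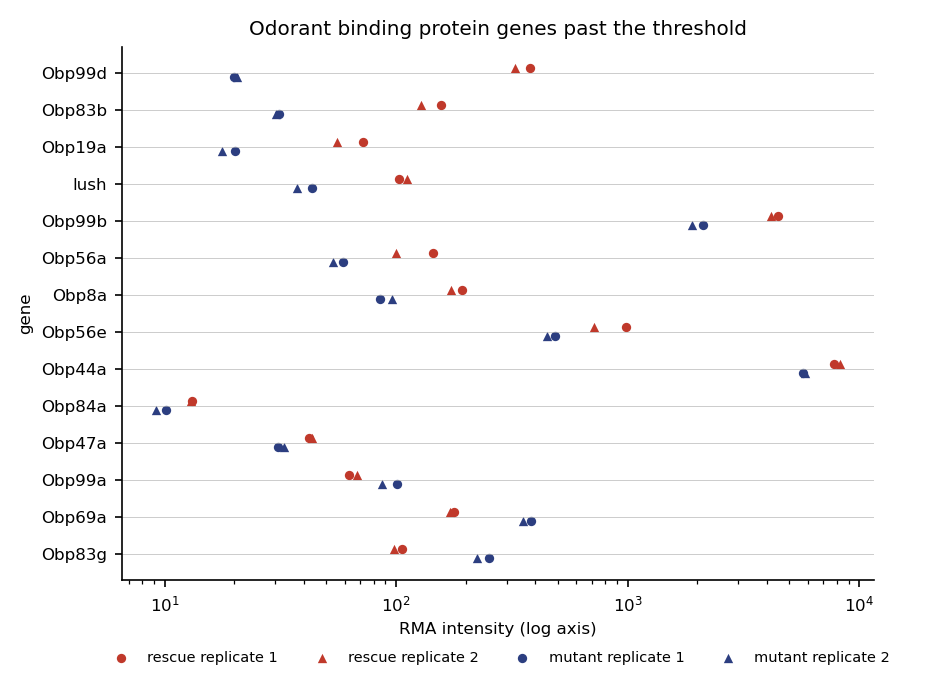
RMA intensity (horizontal, log axis) of the 14 odorant binding protein genes past the threshold, from top to bottom by log2 difference. Red symbols are rescue arrays and blue symbols mutant arrays, circles replicate 1 and triangles replicate 2. The 11 genes at the top lie to the right in rescue and Obp99a, Obp69a and Obp83g to the left.

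Receptor genes of chemosensory neurons held few calls, but most were dim. Of 57 odorant receptor genes 1 rose, Or63a (133.7 and 154.0 in rescue, 77.0 and 73.8 in mutant, 0.93 ± 0.090, adjusted p = 0.00457), and none fell, with a median of 0.0040. Only 2 of the 57 had a mean log2 intensity of at least 6, so changes in the others could be hidden by background. Their summed intensity was 3293.2 and 3357.8 in rescue, against 3644.7 and 3494.6 in mutant, and the part of antennal tissue in the changes of odorant binding proteins was not tested. Of 109 gustatory and ionotropic receptor genes 2 rose and 1 fell. Ir76a read 122.5 and 130.6 in rescue, against 83.7 and 79.2 in mutant (0.64 ± 0.076), and Ir68a read 77.9 and 73.3, against 56.2 and 51.2 (0.49 ± 0.081). Ir75a read 37.9 and 34.9, against 112.3 and 68.3 (-1.27 ± 0.21, adjusted p = 0.0286), the mutant arrays differing from each other.

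Immune effectors did not move together. Beside Def, PGRP-LB, an enzyme that clears bacterial peptidoglycan, read 121.4 and 116.5 in rescue and 84.6 and 82.5 in mutant (0.51 ± 0.071, adjusted p = 0.0164, and 0.0707 with the control arrays in the fit). BomT3, a Toll-pathway peptide gene of the Bomanin family, read 2275.9 and 2249.4, against 3579.2 and 3212.1 (-0.58 ± 0.081, adjusted p = 0.0163). Thus 2 of 24 rose and 1 fell, with a median of -0.024. AttA, AttB, AttC, DptA, CecA1, CecA2, CecC and Dro were among the symbols that matched no measured gene. Listericin, Drsl4 and Drsl5, given under other observations, were called higher but were not counted in this list. Some antimicrobial peptide genes varied more within a group than between groups: Mtk read 3242.9 and 776.8 in rescue and 1849.1 and 4769.4 in mutant, and DptB 1580.6 and 588.5 in rescue and 706.0 and 2398.4 in mutant. Drs was also uneven, at 645.2 and 1446.0 in rescue and 4452.2 and 1856.3 in mutant. Its groups did not overlap, and its difference of -1.57 was the lowest of the list, but it did not pass. Def was stable within both groups, unlike these peptides.

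Blood cell (hemocyte) genes had the highest median of the 37 lists, 0.24, with none of 15 past the threshold (limma). Before adjustment 9 had p under 0.05 upward and 2 downward. Here the mutant arrays stood apart from each other. Hml, a clotting protein of hemocytes, read 432.4 and 387.3 in rescue, against 135.3 and 263.4 in mutant (1.12, adjusted p = 0.0859), and Sr-CI, a scavenger receptor, read 68.5 and 82.6, against 25.6 and 47.2 (1.11, adjusted p = 0.0754). Mutant replicate 1 was the lower array in both genes. PPO2, a phenoloxidase gene whose mutant arrays were closer, read 396.3 and 374.5, against 281.9 and 306.5 (0.39, adjusted p = 0.0512). The summed intensity of the list was 4460.0 and 4414.6 in rescue, against 3376.2 and 3815.3 in mutant, and ItgaPS4 was at background, between 8.7 and 9.5. Its part in the changes of immune genes was not tested.

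Detoxification families changed in both directions. Of 83 cytochrome P450 genes 6 rose and 3 fell (median 0.059), led by Cyp6t1 (445.2 and 417.2 in rescue, 255.0 and 206.5 in mutant, 0.91 ± 0.11, adjusted p = 0.0105) and, downward, Cyp304a1 (43.8 and 50.9 in rescue, 85.8 and 75.5 in mutant, -0.77 ± 0.10) and Cyp12a5 (106.3 and 125.2 in rescue, 201.9 and 184.6 in mutant, -0.74 ± 0.10). Of 69 glutathione and UDP-glycosyl transferases 4 rose and 3 fell (median 0.025). Ugt35C1 read 621.9 and 660.9 in rescue, against 282.2 and 358.9 in mutant (1.01 ± 0.12), Ugt49B1 read 602.8 and 647.1, against 365.3 and 367.4 (0.77 ± 0.074), and Ugt305A1 read 31.6 and 29.5, against 52.0 and 48.3 (-0.71 ± 0.079). With the control arrays in the fit Cyp6t1 rose and no P450 fell, and Ugt49B1 rose and Ugt305A1 fell. The calls of Cyp304a1 (adjusted p = 0.0954), Cyp12a5 (adjusted p = 0.0977) and Ugt35C1 (adjusted p = 0.0565) were lost.

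Cuticle proteins, which build the chitin-bound exoskeleton, fell in 7 of 100 genes and rose in none, although the median was -0.023. Cpr92F read 18.9 and 21.1 in rescue and 42.5 and 44.7 in mutant (-1.13 ± 0.084, adjusted p = 0.00183), Cpr62Bc read 102.1 and 99.6, against 206.4 and 192.1 (-0.98 ± 0.075), and Cpr49Ag read 249.5 and 239.9, against 516.3 and 446.5 (-0.97 ± 0.091). Cpr50Cb, Cpr97Eb, Cpr72Eb and Cpr62Bb fell by between 0.43 and 0.80 log2 units. With the control arrays in the fit 6 members fell and Cpr62Bb did not pass (adjusted p = 0.0688).

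Other lists held few calls. Of 9 juvenile hormone genes 2 rose (median 0.11): Jhedup, a juvenile hormone esterase duplicate (63.2 and 55.0 in rescue, 31.0 and 31.6 in mutant, 0.91 ± 0.088), and JhI-21, an amino acid transporter (0.43 ± 0.070), neither with the control arrays in the fit (adjusted p = 0.158 and 0.06). Of 10 heat shock proteins and partners the co-chaperone gene stv fell, at 1014.1 and 977.7 in rescue and 1462.9 and 1605.8 in mutant (-0.62 ± 0.079, adjusted p = 0.0123). Hsp22, Hsp23, Hsp60, Hsp83 and the listed Hsp70 copies matched no measured gene. Outside that count Hsc70-1 rose (0.51, adjusted p = 0.0324, and 0.194 with the control arrays in the fit). The muscle light chain gene Mlc2 rose (1098.4 and 929.2 in rescue, 668.1 and 711.0 in mutant, 0.55 ± 0.098, adjusted p = 0.0353, and 0.192 with the control arrays), while the 8 other muscle markers did not pass and Mlc1 differed by 0.0041. No gene passed among 15 ecdysone genes, 40 proteasome subunits, 69 mitochondrial and 41 cytosolic ribosomal proteins, 6 gut or 6 testis markers (limma). The ecdysone response genes Eip74EF and Eip75B matched no measured gene. Unadjusted p was under 0.05 for 2 higher and 3 lower ecdysone genes, 2 higher proteasome subunits, 2 higher and 2 lower mitochondrial and 2 higher cytosolic ribosomal proteins, 1 lower gut marker and 0 testis markers. Of 68 respiratory chain and ATP synthase genes 57 differences were above 0, with a median of 0.072 and a single call, the dim COX7AL (-0.69 ± 0.095). Of 29 serine proteases SP1173 rose (0.44 ± 0.074, adjusted p = 0.0288, and 0.0508 with the control arrays in the fit).

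**Figure D5:**
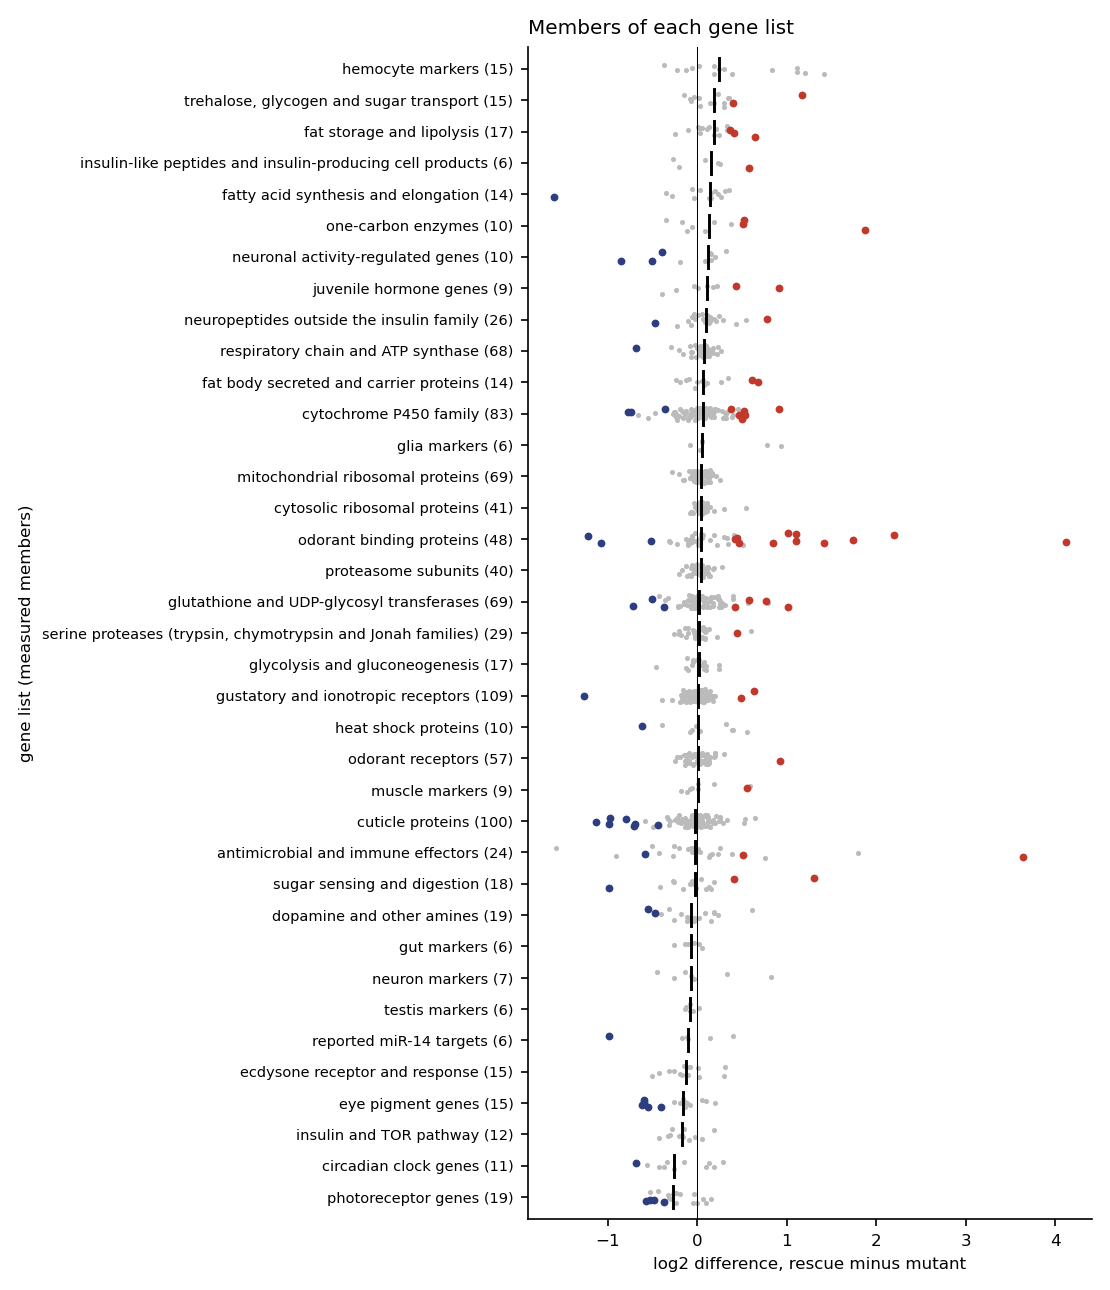
Log2 difference, rescue minus mutant (horizontal), of each measured member of the 37 gene lists, ordered from top to bottom by median, with the number of members in brackets. Red points were higher and blue points lower at an adjusted p under 0.05, grey points did not pass and black bars are medians. Hemocyte markers stand at the top at 0.24, photoreceptor genes at the bottom at -0.28, and odorant binding proteins have the widest spread of called members.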

How the data were processed

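RNA of adult male heads was measured on Affymetrix arrays. The deposited intensity values are those the authors made with RMA, per the submitters' processing notes, on a linear scale. Its version is unstated. Log2 was taken here of the authors' deposited values, 183 control probe sets were left out, and the 2 rescue and 2 mutant arrays were fitted with limma 3.58.1 in R 4.3.3 (lmFit, eBayes, two-sided, Benjamini-Hochberg adjustment over 18769 probe sets, threshold 0.05). The precision is limited by 2 arrays a group (2 residual degrees of freedom, 4.68 prior).

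Gene names came from the platform annotation. Genes were named only from the 13647 probe sets with 1 symbol (11982 genes), not from the 402 with several or the 4720 without. Lists used the brightest probe set of a gene, and 340 of 449 symbols written by hand matched a measured gene. The members, the lists and the use of 4 arrays in the fit were chosen with earlier results of these data known, the counts with 4 and with 6 arrays among them. The symbols slik and po were taken out of their lists after values were seen and then put back. Of these, po matched no measured gene.

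Genes named by rule were the 15 largest rises and 15 largest falls past the threshold with groups that did not overlap, the up to 5 members of each list with the smallest p among those past the threshold (2 where none passed), and a few genes of insulin signalling and sugar response. Other genes named were singled out after their values were seen. Replicate numbers did not pair the arrays: the correlation of same-numbered deviations was 0.0036. Alternatives were the 6-array fit, that fit with an RNA quality index, a replicate block, each array left out, log2(value + 16), a filter on dim probe sets, trended and robust eBayes, median centring and 1 probe set per gene. The fit was tested on simulated data. A planned description of promoter motifs was not analysed here.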

Additional observations from a re-analysis of the deposited data

How the results depend on the processing

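Against 361 probe sets higher and 325 lower, the fit of all 6 arrays called 130 and 133, all of them among the calls of the 4-array fit, and that fit with the 5' to 3' index called 172 and 178. Leaving out 1 array called 8 to 11 higher and 3 to 4 lower, with 1 array fewer to estimate the spread. An intensity trend in the prior called 504 and 496. A replicate block gave 367 and 268, log2(value + 16) gave 440 and 472, a filter at a mean log2 of at least 6 gave 424 and 453, robust eBayes gave 402 and 375, median centring gave 389 and 355, and 1 probe set per gene gave 277 and 285. The cause of these differences was not tested, beyond the fewer arrays where 1 is left out. All 88 named and called probe sets had the same sign in every setting they were fitted in, which groups that do not overlap fix when an array is left out. Of the 88, 5 were called with each of the 4 arrays left out in turn. The smallest called fold was 1.27, and 2 arrays a group limit the precision.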

Other observations

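The following genes were singled out after their values were seen and stand for no list. Acat1, an acetyl-CoA acetyltransferase, read 930.9 and 977.6 in rescue heads and 514.6 and 457.8 in mutant heads (0.97 ± 0.085 on the log2 scale, limma adjusted p = 0.00308), and SCOT, which takes up ketone bodies as fuel, read 597 and 609.4, against 432.3 and 362.9 (0.61 ± 0.098, adjusted p = 0.0261, and 0.071 with the control arrays in the fit). Ornithine aminotransferase (Oat, 0.58 ± 0.071, adjusted p = 0.0568 with the control arrays) and GABA transaminase (Gabat, 0.59 ± 0.077) were higher too. In contrast Sesn, the stress-responsive sestrin that restrains TOR, read 271.4 and 284.6 in rescue, against 531.7 and 495.1 in mutant (-0.88 ± 0.076, adjusted p = 0.00301), and Iml1, of the GATOR complex that acts on TOR, read 625.6 and 594.4, against 1117.9 and 926.5 (-0.74 ± 0.10, adjusted p = 0.0164).

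The immune gene Listericin read 3479.2 and 2743.6 in rescue and 833.1 and 1023.1 in mutant (1.74 ± 0.14, adjusted p = 0.00226), and the Drosomycin-like gene Drsl5 read 6038.8 and 5368.8, against 2629.3 and 2456.6 (1.16 ± 0.087). Its neighbour Drsl4 rose by 0.84 ± 0.093. Among single genes that fell, retinin, a protein of the corneal lens, read 4460.5 and 4044.7 in rescue, against 6816.1 and 7162.5 in mutant (-0.72 ± 0.081, adjusted p = 0.00783), Gasp, a chitin-binding protein gene, read 739.6 and 692.7, against 1276.9 and 1281.7 (-0.84 ± 0.073), and Vajk1, Vajk2, Vajk3 and Vajk4 fell by between 0.40 and 0.69 log2 units. With the control arrays in the fit Vajk1, Vajk2 and Vajk4 did not pass (adjusted p from 0.145 to 0.189).

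Of 498 called genes placed in chromosome order by the gene table, 40 (8.03%) lay beside a gene called the same way. Among all genes 2.12% were called higher and 2.05% lower. These shares count single genes, whereas a called gene could be matched on either side, so 8.03% is not directly comparable with them. The 40 genes formed 20 pairs, with no longer run, and 14 neighbouring pairs were called oppositely. Of the 20 pairs called alike, Arc1 with Arc2, Cpr62Bb with Cpr62Bc, Ugt49B1 with Ugt49C1 and Drsl4 with Drsl5 were related genes. Their probes may share signal, which was not tested. Others, such as cue with Iml1, share no family name. With the control arrays in the fit Ugt49C1 (limma adjusted p = 0.197) and cue (limma adjusted p = 0.0562) did not pass, like Arc2 and Cpr62Bb above. The probe set with the largest fall had no gene name and read 40.6 and 38.2 in rescue, against 1633.8 and 554.6 in mutant (-4.60 ± 0.43, adjusted p = 0.00403). The genes CARPB and jim were called in both directions on different probe sets, and 1 of the CARPB calls was lost with the control arrays in the fit (adjusted p = 0.06).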
